A study of Mus musculus with 6 samples.

Results

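The transcripts described here encode 10 regulators of mTORC1, the nutrient-sensing protein kinase complex that drives protein synthesis and cell growth: the sestrins Sesn1, Sesn2 and Sesn3, the REDD1 gene Ddit4, the translation repressor gene Eif4ebp1, and Deptor, Tsc1, Tsc2, Rptor and Mtor. They were taken by gene name from the deposited table of 34745 mouse genes, and each name matched 1 row. The cells were mouse spermatogonial stem cells grown in culture, which in the testis renew themselves and give rise to sperm. They were of DBA/2J X c57BL/6J strain, taken at postnatal day 6 and kept for 15 to 20 passages. In 3 libraries the cultures had been given 100 µM bisphenol A (BPA), a plastics monomer, for about 4 days, and 3 libraries are titled untreated, with no vehicle named. Nothing in the labels says whether replicates are separate cultures, so each p-value reflects only how far these samples spread, which may be technical.

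mTORC1 consists of the kinase mTOR, its substrate-binding partner raptor (Rptor) and smaller partners, and it is switched on at the lysosome when amino acids and growth factors are plentiful. Sestrins act on the amino acid branch by binding the GATOR2 complex, and sestrin 2 releases it when it binds leucine. REDD1 acts on the growth factor branch through the complex of TSC1 and TSC2, which turns off RHEB, the activator of mTORC1. Downstream, 4E-BP1 (Eif4ebp1) holds the cap-binding protein eIF4E and blocks translation until mTORC1 phosphorylates it. Spermatogonial stem cells are known to need restrained mTORC1 activity to be maintained. mTORC1 activity itself was not measured, since the libraries hold transcripts only.

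Summed gene counts were 14232872 to 22286517 in the BPA libraries and 13453280 to 19183912 in the untreated libraries. The summed level of 10 germ cell markers was 1464 to 1887 CPM (counts scaled to library size) under BPA and 1520 to 1568 CPM in untreated cultures, with Sall4 past the test as higher and Dnd1 and Id4 as lower. The summed level of 8 Sertoli cell markers was 29.7 to 48.9 CPM under BPA and 13.6 to 16.2 CPM in untreated cultures, with Sox9 past the test as higher and Fshr and Rhox5 at 0 counts in every library. The 9 fibroblast or feeder markers summed to 59.6 to 95.3 CPM and 94.1 to 132 CPM, and the 9 peritubular, Leydig or macrophage markers, among which Cyp17a1 and Hsd3b1 were at 0 counts in every library, to 36.8 to 55.9 CPM and 61.9 to 67.4 CPM, in BPA and untreated cultures in that order. Past the test were 0 of the 7 fibroblast or feeder markers tested and 0 of the 3 tested in the last list. Most of the last sum was Cd68, at 33.6 ± 8.58 CPM under BPA and 50.9 ± 2.29 CPM in untreated cultures. Among the fibroblast markers tested, Pdgfra and Dcn had log2 fold changes above 0 (0.12 and 1.06) and the others below. The part of these differences in the results below was not tested, and in such bulk samples fewer cells of a type and less RNA per cell cannot be told apart. BPA replicate 2 stood apart: its genes of GC content below 46% lay at a median of -0.83 on the log2 scale against the mean of the other BPA libraries, and those of 54% or more at 0.45.

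Of the 10 genes, 3 were higher under BPA and 0 lower in edgeR's quasi-likelihood test with Benjamini-Hochberg adjustment over 13287 genes at a threshold of 0.05. Over all tested genes 4.35% were higher and 6.28% lower. The 10 genes were chosen with earlier results of these data known, so their count is a description only. The 3 were Sesn2, Ddit4 and Eif4ebp1, at 7.09, 4.03 and 2.55 times their untreated level. Each encodes a protein known to hold back mTORC1 or its output. So do Sesn1, Sesn3, Deptor, Tsc1 and Tsc2, none of which passed, so the trait is shared by most of the genes chosen. The kinase gene Mtor, its partner gene Rptor and both Tsc genes did not pass, with estimated changes between -0.33 and 0.22 on the log2 scale. All 10 genes passed the filter on low counts. BPA and untreated libraries were fully separated for 5 of the 10 genes, 4 of them higher and 1 lower under BPA, which 31.3% of all tested genes showed in either direction. The median log2 fold change, BPA over untreated, was 0.22 over the 10 genes and 0.10 over all tested genes. The median standard error (SE) was 0.22 over the 10 genes and 0.37 over all tested genes, so smaller changes could pass among the 10.

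**Figure D1:**
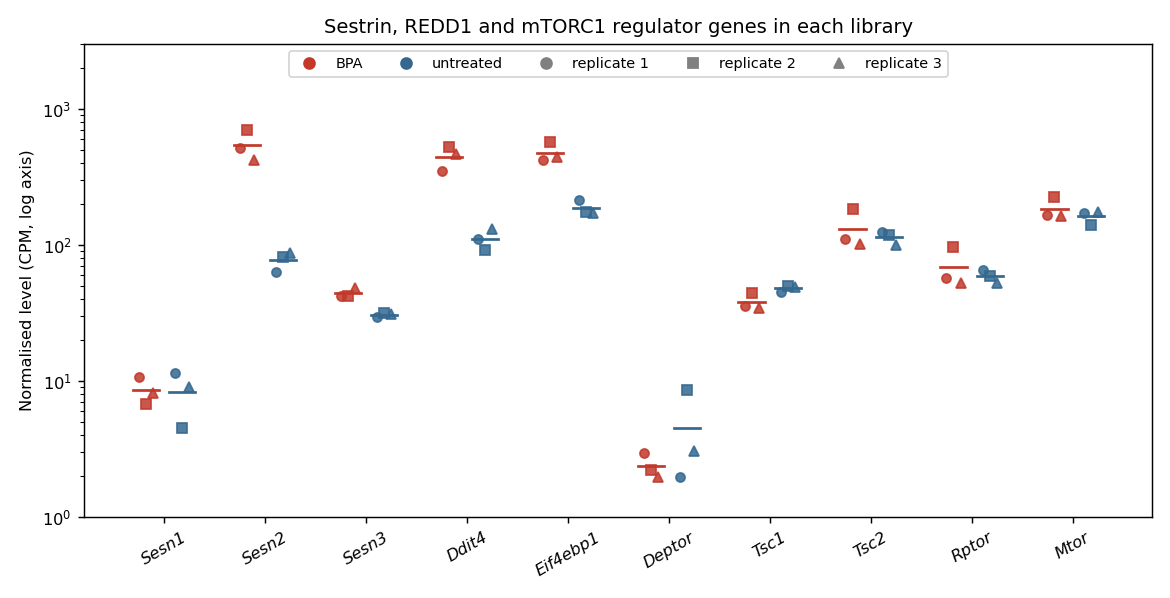
Normalised level (CPM, log axis) of the 10 genes in each library, with BPA to the left of untreated for every gene, markers for replicates and bars for group means. The 3 BPA libraries lie above all untreated ones for Sesn2, Ddit4, Eif4ebp1 and Sesn3, and below them for Tsc1.

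Among the sestrins only Sesn2 passed the test. Sesn2 (ENSMUSG00000028893, chromosome 4, 132492032 to 132510501, mm10) encodes a leucine sensor whose gene is known to be induced by amino acid and endoplasmic reticulum stress. It was counted at 519, 705 and 418 CPM in BPA replicates 1 to 3, and at 63.6, 81.2 and 86.8 CPM in untreated replicates 1 to 3. The lowest BPA library was thus far above the highest untreated one, and BPA replicate 2 was the highest of all. The means were 548 ± 146 CPM under BPA and 77.2 ± 12.1 CPM in untreated cultures (SD, n = 3 each), with a log2 fold change of 2.83 (SE 0.21, 95% interval 2.37 to 3.29, edgeR adjusted p = 1.2e-05). Only 1.08% of the tested genes had a larger rise.

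Sesn3 (ENSMUSG00000032009, chromosome 9, 14276301 to 14326138), known as a target of FOXO transcription factors, was at 42.0, 42.2 and 48.6 CPM in the BPA libraries and at 29.5, 31.6 and 31.2 CPM in the untreated libraries. The groups did not overlap, which 15.6% of all tested genes also showed in this direction. The log2 fold change of Sesn3 was 0.52 (SE 0.22, 95% interval 0.05 to 1.0), and it missed the threshold (edgeR adjusted p = 0.154, unadjusted p = 0.0327). Sesn1 (ENSMUSG00000038332, chromosome 10, 41810574 to 41908424), known as a target of p53, was at 10.7, 6.79 and 8.15 CPM under BPA and at 11.5, 4.55 and 9.0 CPM in untreated cultures. The groups of Sesn1 overlapped fully, and untreated replicate 2, with 58 counts, was the lowest library. Its log2 fold change of 0.03 had a 95% interval of -0.95 to 1.01 (edgeR adjusted p = 0.979), so changes within that interval in either direction were not excluded. The estimate for Sesn1 was -0.15 without BPA replicate 1 and -0.26 without untreated replicate 2. The interval of Sesn2 lies above those of Sesn1 and Sesn3, a difference that was not itself tested.

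Per length, as deposited FPKM (fragments scaled by gene length and library total), sestrin transcripts summed to 185 ± 25.7 under BPA and 37.6 ± 4.06 in untreated cultures (SD, n = 3 each). Sesn2 made up 86.8%, 90.4% and 82.9% of that sum in the BPA libraries, against 51.7%, 59.4% and 59.3% in the untreated ones. The share of Sesn3 was 11.8 ± 3.41% and 36.7 ± 2.19%, and that of Sesn1 1.49 ± 0.508% and 6.54 ± 3.12%, in BPA and untreated libraries in that order. Sesn2 was thus the most abundant sestrin transcript in all 6 libraries, and its share was larger in every BPA library. The shares depend on gene length: the deposited values use 2162 bases for Sesn3, whose merged GENCODE exons cover 15269 bases. With merged exon bases, a choice made after seeing the data, Sesn3 made up 1.88 ± 0.606% under BPA and 7.71 ± 0.697% in untreated libraries, and Sesn2 96.7 ± 1.02% and 84.1 ± 4.48% in the same order. Without division by length the mean share of Sesn2 was 90.8% under BPA and 66.1% in untreated libraries.

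**Figure D2:**
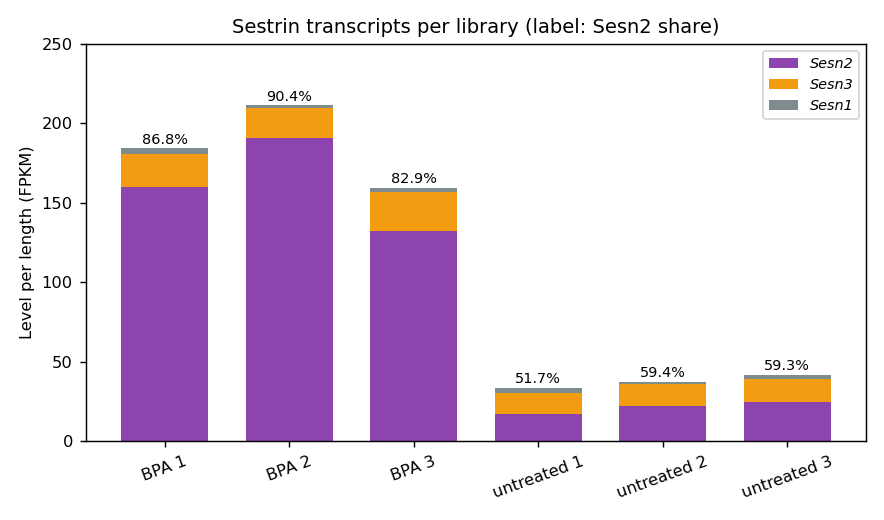
Stacked FPKM of Sesn2, Sesn3 and Sesn1 in each library, BPA libraries on the left, with the Sesn2 share of the sum printed above each bar. The bars reach 160 to 211 FPKM under BPA and 33.7 to 41.8 FPKM in untreated cultures.

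Ddit4 (ENSMUSG00000020108, chromosome 10, 59949675 to 59951770) encodes REDD1, a short-lived mTORC1 inhibitor known to be induced by hypoxia, glucocorticoids and the stress factor ATF4. It was at 350, 524 and 466 CPM in the BPA libraries and at 110, 91.3 and 131 CPM in the untreated libraries. The groups were well separated, with BPA replicate 1 the lowest of the BPA libraries. The means were 446 ± 88.5 CPM and 111 ± 20.1 CPM (SD, n = 3 each), in BPA and untreated cultures in that order, and Ddit4 rose by 2.01 on the log2 scale (SE 0.19, 95% interval 1.59 to 2.43, edgeR adjusted p = 8.4e-05). Its relative Ddit4l (REDD2) was at 5.16 ± 0.197 CPM under BPA and 3.23 ± 2.08 CPM in untreated cultures, and did not pass the test (log2 fold change 0.67, SE 0.64, edgeR adjusted p = 0.563).

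Promoter sequences are shown for Sesn2 and Ddit4, which rose most, and for Sesn3, a sestrin that missed the threshold. They come from RefSeq (GRCm38.p6, the assembly of mm10), which had entries for 8 of the 10 genes. Eif4ebp1 and Deptor had none. Each is written 5′ to 3′ on the strand of its gene and ends before the gene start. Capitals mark the CCAAT box (CCAAT, or ATTGG on the other strand) and ATGCAA (or TTGCAT on the other strand), the last 6 letters of the composite element bound by ATF4 with C/EBP proteins. The regions are chr4:132510502-132510706 on the minus strand for Sesn2, chr10:59951771-59952020 on the minus strand for Ddit4 and chr9:14276051-14276300 on the plus strand for Sesn3.
Sesn2: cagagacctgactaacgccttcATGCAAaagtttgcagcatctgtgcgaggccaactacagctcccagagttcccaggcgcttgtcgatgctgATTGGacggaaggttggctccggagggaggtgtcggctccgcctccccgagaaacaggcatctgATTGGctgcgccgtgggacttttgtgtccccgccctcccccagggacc
Ddit4: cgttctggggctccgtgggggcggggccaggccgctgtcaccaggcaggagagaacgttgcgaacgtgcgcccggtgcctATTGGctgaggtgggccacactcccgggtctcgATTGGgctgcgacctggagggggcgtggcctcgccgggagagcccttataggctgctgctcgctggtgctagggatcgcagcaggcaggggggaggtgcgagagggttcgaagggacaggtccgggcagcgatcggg
Sesn3: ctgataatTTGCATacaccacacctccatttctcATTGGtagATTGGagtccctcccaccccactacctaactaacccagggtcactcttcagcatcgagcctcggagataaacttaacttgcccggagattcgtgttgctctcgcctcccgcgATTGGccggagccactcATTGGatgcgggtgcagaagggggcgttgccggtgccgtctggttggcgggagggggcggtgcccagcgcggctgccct

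The motifs were searched on both strands in the 250 bases before each RefSeq start, over 32851 promoters of which 9 belong to these genes. The full element, searched as TGATGNAA, was in 0 of the 9 and in 3.45% of all promoters. ATGCAA, chosen after the sequences were seen, was in the promoters of Sesn2 and Sesn3 and in 9.45% of all promoters. CCAAT boxes were in 6 of the 9 and in 33.8% of all. The 6 were the promoters of Sesn2, Ddit4, Sesn3 and Mtor and both of Sesn1, and of these genes Sesn3, Mtor and Sesn1 did not pass the test. Sesn2 also held 1 match to the antioxidant element TGACNNNGC, 36 bases before its RefSeq start and outside the stretch printed, a motif in 10.2% of all promoters. The cyclic AMP response element TGACGTCA, the E-box CACGTG and the forkhead motif TGTTTAC were in 0 of the 9, and in 1.55%, 6.02% and 3.17% of all promoters. These matches describe letters in the windows only. Neither of the other motifs overlapped a CCAAT box in the stretches printed.

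Eif4ebp1 (ENSMUSG00000031490, chromosome 8, 27260327 to 27275656) encodes 4E-BP1, whose gene is also known as a target of ATF4. It was at 418, 567 and 446 CPM in the BPA libraries and at 214, 174 and 173 CPM in the untreated libraries. Again every BPA library was above every untreated one, with BPA replicate 2 the highest. The means were 477 ± 79.3 CPM under BPA and 187 ± 23.5 CPM in untreated cultures (SD, n = 3 each), and Eif4ebp1 rose by 1.35 on the log2 scale (SE 0.16, 95% interval 0.99 to 1.71, edgeR adjusted p = 4.3e-04). Its paralogue Eif4ebp2 was at 154 ± 60.6 and 153 ± 11.7 CPM, and the cap-binding protein gene Eif4e at 73.2 ± 26.3 and 74.5 ± 14.1 CPM, in BPA and untreated cultures in that order, and neither passed (edgeR adjusted p = 0.978 and 0.969). Eif4ebp3 had 0 counts in all libraries. Per length, Eif4ebp1 made up 90.7 ± 1.98% of the summed 4E-BP FPKM under BPA and 79.0 ± 1.56% in untreated cultures.

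The direct mTOR inhibitor gene Deptor (ENSMUSG00000022419, chromosome 15, 55112317 to 55259271) was the rarest of the 10. It was at 2.95, 2.23 and 1.96 CPM under BPA and at 1.97, 8.55 and 3.05 CPM in untreated cultures, where replicate 2 alone stood high. Its log2 fold change of -0.92 had a wide interval, -2.52 to 0.67 (edgeR adjusted p = 0.472), and was -0.07 without untreated replicate 2. In the annotation 3.4% of the Deptor exon bases overlap Gm9920 on the opposite strand, and the library kit does not keep strand.

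Tsc1 and Tsc2 encode the partners of the complex through which REDD1 acts. Tsc1 (ENSMUSG00000026812, chromosome 2, 28641228 to 28691167) was at 35.7, 44.3 and 34.5 CPM in the BPA libraries and at 44.9, 50.2 and 48.8 CPM in the untreated libraries. The groups touched closely without overlapping, as 15.7% of all tested genes did in this direction. The log2 fold change of Tsc1 was -0.33 (SE 0.21, 95% interval -0.79 to 0.14, edgeR adjusted p = 0.374), and it passed as lower once library-specific trends with GC and length were removed (-0.58, edgeR adjusted p = 0.0437). Tsc2 (ENSMUSG00000002496, chromosome 17, 24595937 to 24632629) was at 110, 185 and 101 CPM under BPA and at 124, 118 and 99.9 CPM in untreated cultures. Apart from BPA replicate 2 the libraries of both groups covered the same range. The log2 fold change of Tsc2 was 0.22 (95% interval -0.28 to 0.71, edgeR adjusted p = 0.604), and it was -0.11 without BPA replicate 2. Of the Tsc2 exon bases 7.2% overlap Pkd1 on the opposite strand.

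Neither gene of the kinase complex itself passed the test. Mtor (ENSMUSG00000028991, chromosome 4, 148448611 to 148557683) was at 167, 225 and 163 CPM in the BPA libraries and at 172, 141 and 174 CPM in the untreated libraries, which overlap. Its log2 fold change of 0.19 had a 95% interval of -0.19 to 0.57 (edgeR adjusted p = 0.544). Rptor (ENSMUSG00000025583, chromosome 11, 119602905 to 119899576) was at 57.2, 97.3 and 52.8 CPM under BPA and at 65.4, 59.6 and 53.0 CPM in untreated cultures. As for Tsc2, a single library, BPA replicate 2, was high. The log2 fold change of Rptor was 0.22 (95% interval -0.31 to 0.75, edgeR adjusted p = 0.631), and it was -0.11 without that library. Its overlap with Rptoros on the opposite strand covers 0.6% of its exon bases.

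**Figure D3:**
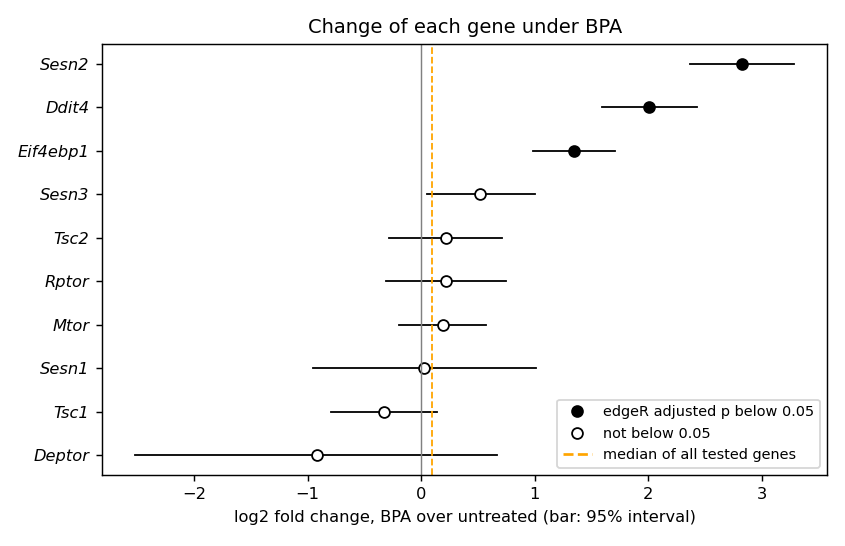
Log2 fold change of the 10 genes, BPA over untreated, with 95% intervals from edgeR; filled points passed the threshold and the dashed line marks the median of all tested genes (0.10). The intervals of Sesn2, Ddit4 and Eif4ebp1 lie at or above 0.99, while those of Tsc2, Rptor, Mtor, Sesn1, Tsc1 and Deptor include 0.

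BPA replicate 2 was above the mean of the other BPA libraries for 7 of the 10 genes. The log2 ratio was 0.82 for Rptor, 0.81 for Tsc2, 0.59 for Sesn2, 0.45 for Mtor, 0.39 for Eif4ebp1, 0.36 for Ddit4 and 0.33 for Tsc1, whose transcripts have GC contents of 48.2% to 58.7%. It was -0.10 for Sesn3, -0.14 for Deptor and -0.47 for Sesn1, with GC contents of 45%, 44.3% and 49.8%. Without BPA replicate 2 the log2 fold changes of Sesn2, Ddit4 and Eif4ebp1 were 2.60, 1.88 and 1.21, and all 3 passed the threshold.

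**Figure D4:**
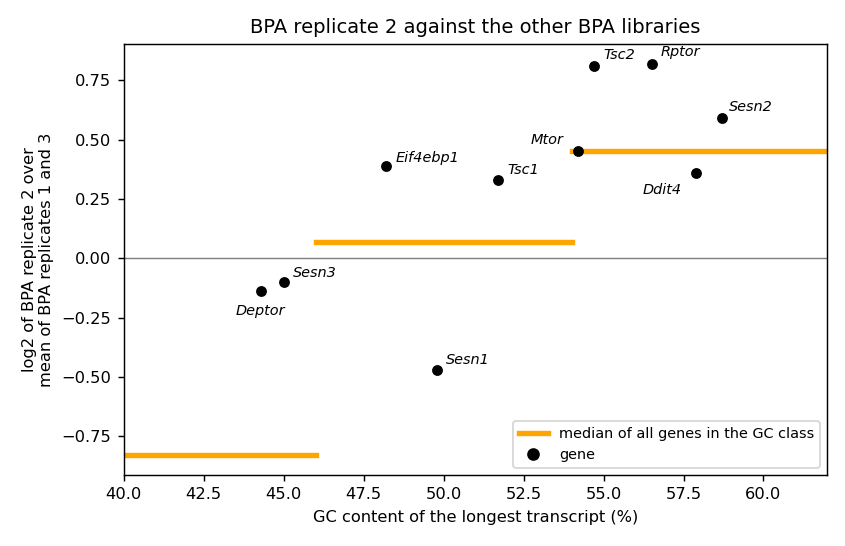
Log2 ratio of BPA replicate 2 to the mean of BPA replicates 1 and 3 for each of the 10 genes, against the GC content of its longest transcript. Orange lines give the median over all genes of mean level at least 1 CPM in each GC class (-0.83, 0.07 and 0.45), and Rptor and Tsc2 lie highest among the points.

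Levels of different genes were compared per length. In the BPA cultures the order of mean FPKM was Eif4ebp1 (501 ± 43.3), Ddit4 (273 ± 44.0), Sesn2 (161 ± 29.3), Tsc2 (22.4 ± 5.77), Sesn3 (21.3 ± 3.20), Mtor (16.5 ± 1.63), Rptor (3.45 ± 0.903), Sesn1 (2.69 ± 0.761), Tsc1 (2.27 ± 0.117) and Deptor (0.219 ± 0.0531; SD, n = 3 each). The libraries of Tsc2 and Sesn3, of Sesn3 and Mtor, of Rptor and Sesn1, and of Sesn1 and Tsc1 overlapped, so these neighbours were not separated. In untreated cultures Eif4ebp1 (184 ± 21.2) and Ddit4 (63.5 ± 13.1) were again the highest. Sesn2 there was at 21.4 ± 3.73 FPKM and overlapped Tsc2 at 18.2 ± 1.60, whereas under BPA its lowest library (132 FPKM) was above the highest of Tsc2 (29.0 FPKM). The order rests on the deposited lengths, such as 981 bases for Eif4ebp1, whose merged exons cover 2196. For Rptor, Tsc1, Deptor and Mtor the deposited length is instead the longer, such as 20417 against 13471 bases for Rptor. With merged exon bases 2 of the 10 genes under BPA and 4 in untreated cultures kept their rank. The mean of Ddit4 was then above that of Eif4ebp1 under BPA (262 ± 42.2 and 224 ± 19.3 per merged exon kilobase). Their libraries overlapped (from 214 for Ddit4 and up to 243 for Eif4ebp1), so these neighbours were not separated. Sesn3 was at 3.02 ± 0.453 under BPA and 1.94 ± 0.0952 in untreated cultures. Sesn2 kept rank 3 in both groups, and its untreated libraries (from 17.4) were then above those of Tsc2 (up to 12.3).

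Genes whose profile over the 6 libraries was closest to those of Sesn2 and Ddit4 were found by the root mean square difference of centred log2(CPM + 0.5). For Sesn2 these were Fgf13, a fibroblast growth factor family gene at only 4.14 ± 1.08 CPM under BPA and 0.123 ± 0.150 CPM in untreated cultures (difference 0.18), the asparagine synthetase gene Asns (0.22) and the proline synthesis gene Pycr1 (0.22). The log2 fold change of Fgf13, 5.05 (SE 1.25), was larger than the 2.83 of Sesn2, and the 0.5 added before taking logs shrinks the difference of a gene this close to 0 in untreated cultures. For Ddit4 they were Agap1, a regulator of ARF proteins (0.09), the serine synthesis gene Psat1 (0.13) and the tyrosyl-tRNA synthetase gene Yars (0.17). Asns was at 1768 ± 206 CPM under BPA and 262 ± 9.53 CPM in untreated cultures, and Psat1 at 1014 ± 159 and 222 ± 23.2 CPM. The log2 fold changes were 2.75 for Asns, 2.73 for Pycr1, 1.91 for Agap1, 2.19 for Psat1 and 1.94 for Yars. With 2 groups and large rises, the measure mostly picks genes with a rise of like size. Closeness thus does not show that genes vary together between replicates. Among the genes that rose, Ddit4 differed by 0.39 from Eif4ebp1 and by 0.49 from Sesn2.

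Transcription factors known to act on these genes were measured beside them. Of 11, 4 were higher and 0 lower (36.4% past the threshold in either direction, against 10.6% of all tested genes). Their median log2 fold change was 1.08, against 0.10 over all tested genes. This list and the pathway lists below were chosen with earlier results of these data known, so their shares and medians are descriptions only. The median SE was 0.24 in this list, against 0.37 over all tested genes. In the pathway lists it was 0.26 (amino acid), 0.39 (growth factor), 0.23 (complex partners) and 0.22 (substrates). A gene with a smaller SE passes at a smaller change, so shares of lists with unlike SE are not directly comparable. Atf4, the central factor of the integrated stress response, was at 750, 809 and 787 CPM in the BPA libraries and at 60.0, 46.1 and 61.1 CPM in the untreated libraries, without overlap (log2 fold change 3.81, SE 0.16, edgeR adjusted p = 1.4e-07). Ddit3, which encodes the stress factor CHOP, rose by 3.10 (SE 0.43, edgeR adjusted p = 9.2e-04). Foxo3 rose by 1.08 (SE 0.21) and Cebpb by 2.10 (SE 0.51), and leaving out untreated replicate 1 took both above 0.05 (edgeR adjusted p = 0.0598 and 0.0613), so that 2 of the 11 were higher. Cebpb also missed it without untreated replicate 2 (edgeR adjusted p = 0.0602). DESeq2 called 7 of the 11 as higher. Trp53, which encodes p53, was at 328 ± 68.7 CPM under BPA and 326 ± 3.78 CPM in untreated cultures (edgeR adjusted p = 0.978).

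Other genes of the amino acid branch changed in both directions. Of 27 tested, 4 were higher and 2 lower (22.2% against 10.6% of all tested genes), with a median of 0.15. Lars, the cytosolic leucyl-tRNA synthetase, also described as a leucine sensor, rose to 115 ± 56.8 CPM under BPA, against 14.9 ± 2.23 CPM in untreated cultures (log2 fold change 2.95, SE 0.37, edgeR adjusted p = 4.8e-04). Itfg2, a subunit of the KICSTOR complex that holds GATOR1 at the lysosome, rose by 1.21 (SE 0.29), and the folliculin gene Flcn, which acts on RAG GTPases, rose by 0.58 (SE 0.15). Gatsl3, the arginine sensor gene also named Castor1, fell to 32.7 ± 2.26 CPM, against 63.8 ± 3.13 CPM in untreated cultures (log2 fold change -0.97, SE 0.20, edgeR adjusted p = 0.0102). Itfg2, Flcn and Gatsl3 each lost the threshold without untreated replicate 1 or 2, and Flcn and Gatsl3 also without BPA replicate 1 (highest edgeR adjusted p = 0.108, 0.159 and 0.0553). The number past the threshold was 2 without BPA replicate 1, 1 without untreated replicate 1 and 3 without untreated replicate 2, all of them higher.

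In the growth factor and energy branch 0 of 24 genes were higher and 1 was lower, with a median log2 fold change of 0.32. That gene was Akt1, a kinase that inhibits the TSC complex, at 191 ± 26.7 CPM under BPA and 291 ± 6.99 CPM in untreated cultures (log2 fold change -0.61, SE 0.15, edgeR adjusted p = 0.0245). Akt1 no longer passed when BPA replicate 3 or any 1 untreated replicate was left out (highest edgeR adjusted p = 0.124), which gave 0 of 24. Of the 24, 2 were higher and 2 lower when BPA replicate 2 was left out, and likewise with GC and length trends removed. The share past the threshold was 4.17%, against 10.6% of all tested genes.

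Among 9 partners of the mTOR complexes 1 was higher and 2 were lower (33.3% against 10.6% of all tested genes), with a median of 0.17 against 0.10. Prr5, a subunit of mTORC2, fell to 86.3 ± 8.99 CPM under BPA, against 243 ± 23.3 CPM in untreated cultures (log2 fold change -1.49, SE 0.16, edgeR adjusted p = 1.7e-04), and passed without each library in turn. Telo2 and Tti2, which encode partners in the complex that assembles mTOR and related kinases, moved in opposite directions, Telo2 at -0.98 (SE 0.23) and Tti2 at 0.94 (SE 0.24). Leaving out BPA replicate 1 or any 1 untreated replicate left Prr5 alone past the threshold (highest edgeR adjusted p = 0.0933 for Telo2 and 0.111 for Tti2). Telo2 also missed it when BPA replicate 3 was left out, and Tti2 with GC and length trends removed (edgeR adjusted p = 0.0673 and 0.0855).

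Of 16 genes for mTORC1 substrates and effectors, 2 were higher and 2 lower (25% against 10.6% of all tested genes), with a median of 0.12 against 0.10. Eif4g1, the scaffold that eIF4E joins when 4E-BP1 lets go, rose to 852 ± 122 CPM under BPA, against 496 ± 24.4 CPM in untreated cultures (log2 fold change 0.78, SE 0.14, edgeR adjusted p = 0.00522). Grb10, an mTORC1 substrate that dampens insulin signalling, rose by 1.46 (SE 0.32). Tfeb, the lysosome and autophagy transcription factor that mTORC1 keeps out of the nucleus, fell by 0.93 on the log2 scale (SE 0.19), and the autophagy initiation gene Atg13 fell by 1.22 (SE 0.25). Without untreated replicate 1, 0 of the 16 passed (edgeR adjusted p = 0.0538 for Eif4g1). Grb10 also missed the threshold without BPA replicate 1 or untreated replicate 2 (edgeR adjusted p = 0.0775 and 0.0535), Tfeb without untreated replicate 2 (0.0654) and Atg13 without untreated replicate 3 (0.0562). The number was 2 without untreated replicate 2, and 7 when BPA replicate 2 was left out or GC and length trends were removed.

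**Figure D5:**
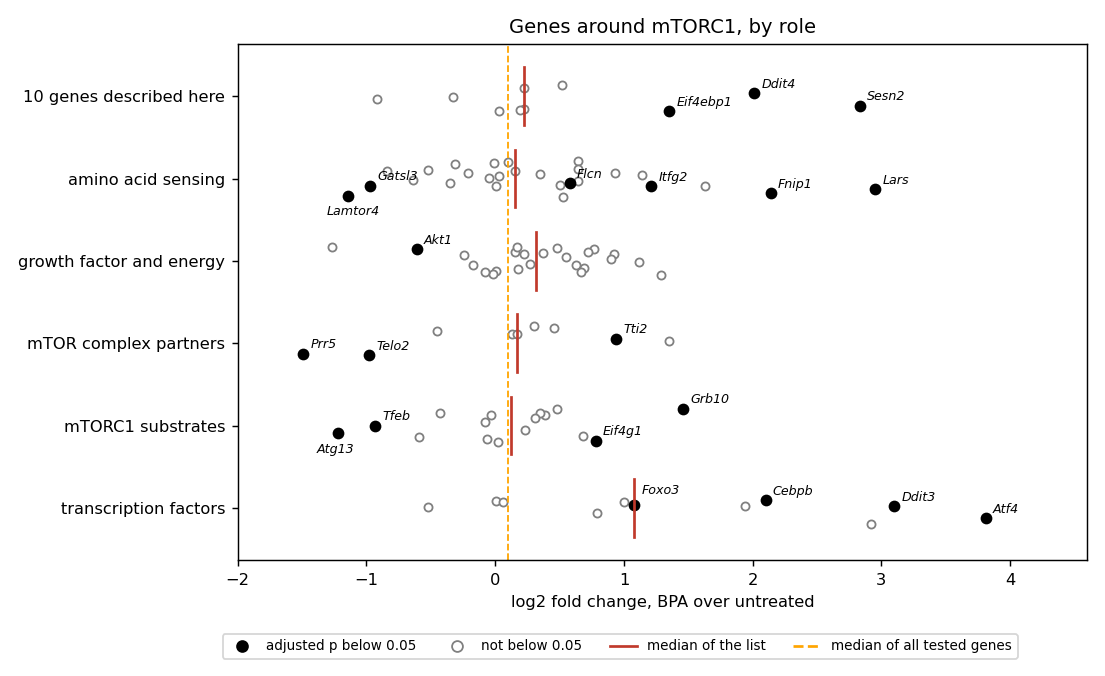
Log2 fold change, BPA over untreated, of every tested gene in 6 lists; filled and named points passed the edgeR threshold, red bars are list medians and the dashed line is the median of all tested genes (0.10). The transcription factor list has the highest median (1.08), and genes past the threshold lie on both sides of 0 in the amino acid, complex partner and substrate lists. All lists were chosen with earlier results of these data known.

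The deposited KEGG annotation, looked up after the values were seen, lists 58 genes for the mTOR signaling pathway, with 6 of the 10 genes among them and no sestrin. Of its 51 tested genes 4 were higher (Ddit4, Eif4ebp1, Vegfa and Rps6ka3) and 1 lower (Akt1), a share of 9.8% against 10.6% of all tested genes.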

How the data were processed

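Raw gene counts and FPKM values were deposited by the authors in 1 table, with 1 column of each kind per library, matched to samples by the code in the sample titles. Reads were processed with TopHat2 2.0.9 and HTSeq on mm10, per the submitters' processing notes. For HTSeq, the version, gene models and strand option were not given in the sources used here. Raw deposited counts carried all tests. The deposited FPKM values equal counts over a gene length and the column total (largest relative deviation 3.2e-05 at 100 counts or more), and were used for levels between genes and to recover lengths.

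After filterByExpr, TMM-scaled counts were tested with edgeR 4.0.16 (R 4.3.3), BPA over untreated with no block; CPM values carry this scaling. The SE is the log2 fold change over the square root of F, and intervals are 95%. Replicates differed by more than counting noise (chi-square per degree of freedom 18.9 to 84.5). Alternatives used DESeq2 1.42.0 and limma-voom 3.58.1, other scalings and filters, a replicate block, leaving out each library and a GC and length correction (lowess span 0.3, GENCODE vM21 transcripts), and, added after seeing the data, merged GENCODE exon bases as gene length. Tests were tried on simulated counts.

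The 10 genes and the lists were chosen with earlier results of these data known. Named genes were all 10, the 4 smallest adjusted p per list at most among those passing, Atf4 and Trp53, and the 3 genes most like Sesn2 and Ddit4 at a mean of 1 CPM or more, predicted genes left out. Figures used matplotlib 3.10.9.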

Additional observations from a re-analysis of the deposited data

How the results depend on the processing

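Sesn2, Ddit4 and Eif4ebp1 passed the threshold as higher under all 16 alternatives, with log2 fold changes of 2.60 to 3.0, 1.88 to 2.35 and 1.21 to 1.51. Sesn3, Mtor and Deptor kept their direction and stayed below it, Sesn3 with edgeR adjusted p = 0.0805 with library size alone as its lowest. The GC and length correction put Tsc1 past the threshold (-0.58) and Sesn1 at -0.02. Leaving out each library in turn gave -0.26 to 0.33 for Sesn1, -0.11 to 0.38 for Tsc2 and for Rptor. Such fits gave 451 to 2904 genes past the threshold in all (669, 2904 and 785 without BPA replicates 1 to 3, and 451, 531 and 857 without untreated replicates 1 to 3), 1 to 9 in the amino acid list, 0 to 4 in the growth factor list, 1 to 4 among complex partners, 0 to 7 among substrates and 2 to 6 among transcription factors. The 1412 genes past the threshold became 2200 in DESeq2, 487 at an FDR of 0.01 and 2213 after the GC and length correction. Scaling by library size without TMM put 843 genes higher and 798 lower in place of 578 and 834, and moved the median of all tested genes from 0.10 to 0.21. The FDR of 0.01 left 1 amino acid gene, 0 growth factor genes, 1 complex partner and 2 substrates. The growth factor count was 2 with library size alone or no low-count filter and 4 after the GC and length correction. The substrate count was 7 after that correction, and the transcription factor count was 7 in DESeq2 or with no low-count filter. Trp53, at 0.01, was -0.01 in DESeq2, limma-voom, with DESeq2 size factors and with a replicate block, and -0.17 without BPA replicate 2. Shares by counts put Sesn2 at 90.8% and 66.1% of the sestrins, in BPA and untreated libraries in that order, and merged exon bases, tried after seeing the data, at 96.7% and 84.1%, with 2 and 4 of the 10 genes at their rank of level. The causes of these shifts were not tested. With the replicate block 1807 genes passed, 7 of them substrates, and the log2 fold changes of Sesn2, Ddit4 and Eif4ebp1 were 2.81, 2.00 and 1.34. Same-numbered libraries correlated at -0.02, 0.06 and 0.07 in their deviations across genes, and differently numbered ones at -0.08 to 0.03. Such weak correlations cannot show whether a replicate number marks a shared culture or day, and the labels do not say. Deptor and Sesn1 had the lowest counts of the 10 genes and the largest SE (0.73 and 0.45), and the source of that spread was not tested.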

Other observations

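Ratios between partner transcripts were computed per length, as FPKM, and carry no test; their size depends on the deposited gene lengths, which are the same in every library. Tsc2 over Tsc1 was 8.91, 12.1 and 8.42 in the BPA libraries and 7.96, 6.76 and 5.90 in the untreated libraries. The groups did not overlap, by a narrow gap. Full separation in either direction was seen for 31.3% of all tested genes, but that share is for single genes. No such share was computed for ratios. The highest ratio was in BPA replicate 2, where Tsc2 was 0.81 and Tsc1 0.33 above the mean of the other BPA libraries on the log2 scale. Mtor over Rptor was 4.92 ± 0.721 under BPA and 4.88 ± 0.832 in untreated cultures (SD, n = 3 each). Eif4ebp1 over Eif4e was 32.6, 94.0 and 37.1 in the BPA libraries and 20.6, 20.3 and 13.9 in the untreated libraries, and the high value of BPA replicate 2 goes with an Eif4e level of 5.79 FPKM there, the lowest of all 6 libraries. Eif4e has a GC content of 40.5%.

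In the amino acid branch 2 further genes passed the threshold, and are named after their values were seen. Fnip1, the partner of folliculin, was at 21.1, 5.70 and 21.1 CPM in the BPA libraries and at 2.52, 6.67 and 1.74 CPM in the untreated libraries, so the groups overlapped through BPA replicate 2 (log2 fold change 2.14, SE 0.62, edgeR adjusted p = 0.0448). It missed the threshold when BPA replicate 1 or 3 or untreated replicate 1 or 3 was left out (edgeR adjusted p = 0.134 to 0.177), in limma-voom (0.111) and with the replicate block (0.0682). Lamtor4, a subunit of the Ragulator anchor of mTORC1 on the lysosome, was at 11, 14.2 and 21.3 CPM under BPA and at 34.5, 36.9 and 31.6 CPM in untreated cultures (log2 fold change -1.14, SE 0.30, edgeR adjusted p = 0.0315). It missed the threshold when BPA replicate 1 or any 1 untreated replicate was left out (edgeR adjusted p = 0.0828 to 0.128), with library size alone (0.0578) and after the GC and length correction (0.103).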
